A study of Rattus norvegicus with 4 samples.

Results

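This account covers 40 genes of the splicing machinery in rat kidney epithelial cells: the heterogeneous nuclear ribonucleoproteins (hnRNPs), the serine/arginine-rich splicing factors (SR proteins), the SF3a and SF3b subunits, and the RNA-stabilising protein Elavl1. They are the protein-coding rows of the deposited gene table whose symbols begin with Hnrnp, with Srsf and a digit, or with Sf3a or Sf3b and a digit, together with Rbmx and Elavl1. The rule finds 40 of 17768 rows, of which 14850 are protein-coding, and uses no measured value. Counting Rbmx with the hnRNPs, the set holds 20 hnRNP genes, 10 SR genes, 9 SF3 genes and Elavl1.

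RNA was sequenced from 4 libraries of NRK-52E, an established line of normal rat kidney epithelium that the labels call proximal tubular. Of these, 2 are titled lv_Mettl3 and 2 are titled lv_nc. Per the labels, a lentivirus carrying murine Mettl3 cDNA in pLVX-IRES-Puro served to establish stable cells overexpressing METTL3 under puromycin selection; the same text and the treatment entry "untreated" stand on all 4 samples. The meaning of nc, the virus those cells received, the origin of a line from a pool or a clone and the origin of replicates from separate cultures are not stated. The p-values therefore reflect the spread among 2 libraries a title, which may be technical.

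Splicing removes introns from pre-mRNA. SR proteins bind exons and usually favour their inclusion, many hnRNPs coat the transcript and often oppose inclusion, and SF3a and SF3b are parts of the U2 particle that settle on the branch point. Mettl3 is the catalytic subunit of the enzyme that writes N6-methyladenosine (m6A) on RNA, and several of these proteins, among them Hnrnpa2b1, Hnrnpc, Srsf3, Srsf10, Rbmx and Elavl1, have been linked to m6A in other cells, so the comparison asks whether their own transcripts differ in the libraries labelled lv_Mettl3.

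The row of the rat gene Mettl3 did not follow the titles, where the labels describe a murine cDNA. Mettl3 had 757 and 700 normalized reads in the libraries labelled lv_Mettl3, against 719 and 767 in those labelled lv_nc, where a normalized read is a read count divided by a size factor of the library. It averaged 728 ± 40.6 in the libraries labelled lv_Mettl3 and 743 ± 34.0 in those labelled lv_nc (SD, n = 2 each), and the groups overlap. The sources used here do not give how reads of the murine cDNA were counted, so every direction below is one between libraries with these titles. Depth was 15068898 and 15483756 reads in the libraries labelled lv_Mettl3 and 16133328 and 16622255 in those labelled lv_nc. Of the 9 proximal tubule markers checked, 7 were in the table; Ggt1 carried nearly all of their sum, and Lrp2, a defining receptor of that segment, was at 0 in both libraries labelled lv_Mettl3 and at most 1.95 in those labelled lv_nc. The summed proximal tubule markers were 3347 and 3838 in the libraries labelled lv_Mettl3, against 2483 and 2601 in those labelled lv_nc. The summed fibroblast and smooth muscle markers, 6 of 8 in the table, stood at 5150 and 4552 in the libraries labelled lv_Mettl3, against 13425 and 17568 in those labelled lv_nc. The collagen genes carried that contrast: Col1a1 had 1033 and 876 in the libraries labelled lv_Mettl3, against 3914 and 8706 in those labelled lv_nc, and Col3a1 had 1386 and 1017 in the libraries labelled lv_Mettl3, against 4115 and 6315 in those labelled lv_nc. The smooth muscle gene Tagln did not follow the sum, with 2159.7 and 2152 in the libraries labelled lv_Mettl3, against 3778 and 1663 in those labelled lv_nc. Pdgfra was at most 3.10 in any library. The summed epithelium markers, 4 of 6 in the table, overlapped, at 29077 and 32963 in the libraries labelled lv_Mettl3, against 30213 and 33671 in those labelled lv_nc. Krt8 carried nearly all of that sum, while Cdh1 was at most 8.79 and Cldn1 at most 1.85 in any library. Endothelial and leukocyte sums were at most 54.8 in any library. The part of these markers in the results below was not tested, and in bulk RNA fewer cells of a type and less RNA per cell cannot be told apart.

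None of the 40 transcripts passed the test. With limma on log2(value + 1), adjusted over 16391 genes at 0.05, 0 of the 40 were called, and the smallest adjusted p among them was 0.419 (Hnrnpc). Over all genes limma called 0.0183%. At an unadjusted p under 0.05, 1 member was found (Hnrnpc), where 10.5% of all genes were. The count tests gave the same: edgeR's quasi-likelihood test called 0 members and 0.0305% of all genes, DESeq2 called 0 members and 2.52% of the 12601 genes it adjusted, and in each of them Hnrnpc alone had an unadjusted p under 0.05. No member had an adjusted p under 0.05 in the authors' deposited table, and 0 were among the 167 genes of their short list.

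The fold changes were small. The log2 fold change, libraries labelled lv_Mettl3 over lv_nc, lay within 0.3 of 0 for 38 of the 40. This held for 76.3% of the 10051 genes with a mean of at least 100 normalized reads, and for 59.5% of all genes tested. All 40 members reach that level, and most lie far above it. The genes set beside them are therefore not matched in level, and the part of level in these shares was not tested. The median was 0.015 for the 40 members, -0.047 for hnRNP genes, 0.072 for SR genes and 0.051 for SF3 genes, and 0.005 for all genes tested. For 35 of the 40 the 95% interval of the fold change lay wholly within 1.5-fold in either direction; this held for 17 of 20 hnRNP, 8 of 10 SR and 9 of 9 SF3 genes, and for 57.7% of the genes at that level. The other 5 were Hnrnpab, Hnrnpc, Hnrnph3, Srsf2 and Srsf6. In 5 members both libraries labelled lv_Mettl3 stood above both labelled lv_nc (Elavl1, Hnrnpf, Hnrnpll, Srsf2, Srsf10), and such genes made up 23.5% of all genes. In 7 both stood below (Hnrnpc, Hnrnph1, Hnrnph2, Hnrnph3, Hnrnpul1, Sf3b2, Sf3b5), against 21.5% of all genes. Neither share exceeds the background, and 28 members overlap.

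**Figure D1:**
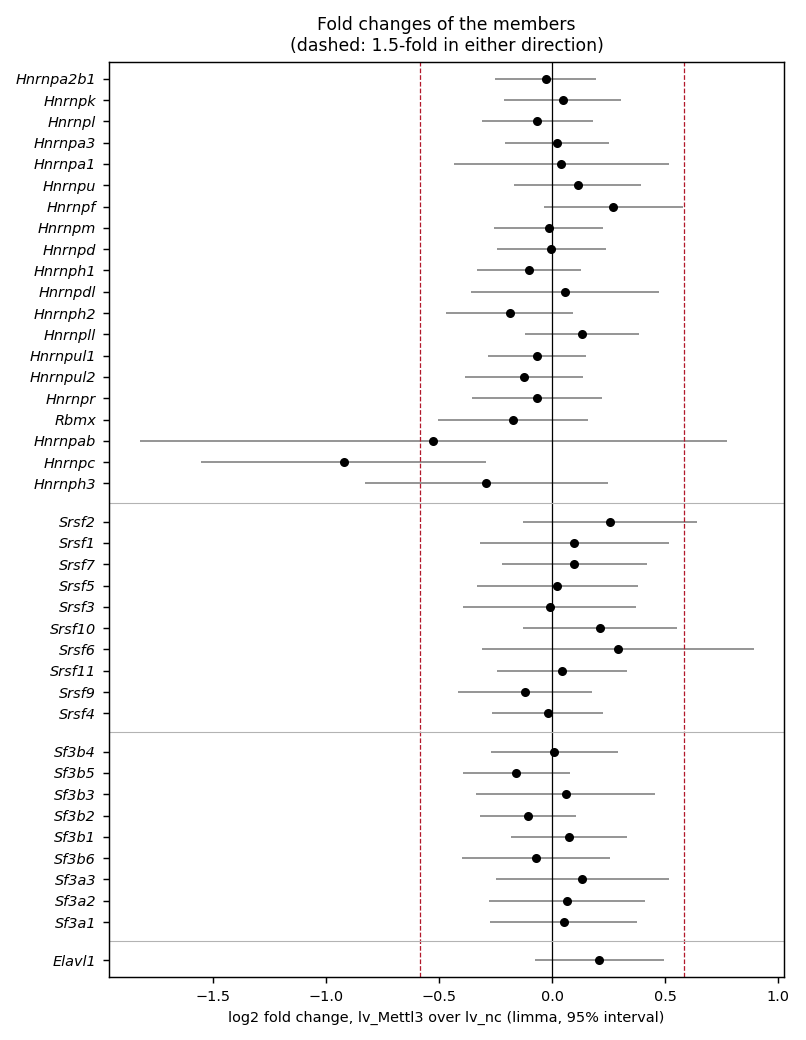
Log2 fold change (libraries labelled lv_Mettl3 over lv_nc, n = 2 each) of the 40 members with its 95% limma interval, grouped as hnRNP, SR, SF3 and Elavl1 and ordered within a group by level; dashed lines mark 1.5-fold in either direction. The interval crosses 0 for every member except Hnrnpc, at -0.92, whose adjusted p was 0.419.

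The hnRNP genes differed widely in level per length. Per kilobase of deposited gene length, the mean over 4 libraries was highest for Hnrnpa2b1 (9247 ± 267, SD), a nuclear RNA binder proposed as a reader of m6A, and for Hnrnpk (4797 ± 253), which binds C-rich RNA. Next came Hnrnpl at 4488, a binder of CA repeats, Hnrnpa3 at 4443, Hnrnpa1 at 3885, a repressor of exon inclusion, Hnrnpu at 3704, which also tethers chromatin, Hnrnpf at 3378 and Hnrnpm at 2932. Between 1014 and 1931 lay Hnrnpd, which binds AU-rich elements, its relative Hnrnpdl, Hnrnph1 and Hnrnph2, which bind runs of G, Hnrnpll, a relative of Hnrnpl, and Hnrnpul1 and Hnrnpul2, relatives of Hnrnpu. Hnrnpr followed at 681 and Rbmx at 574, and 3 genes stood far below: Hnrnpab at 163, Hnrnpc at 134 and Hnrnph3 at 40.1. Another row, treated below, is described as hnRNP C1/C2-like, so the level of the row named Hnrnpc need not be that of hnRNP C as a whole. Deposited lengths of the 40 members ran from 372 to 5290 bases, and levels per length use these lengths as given.

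**Figure D2:**
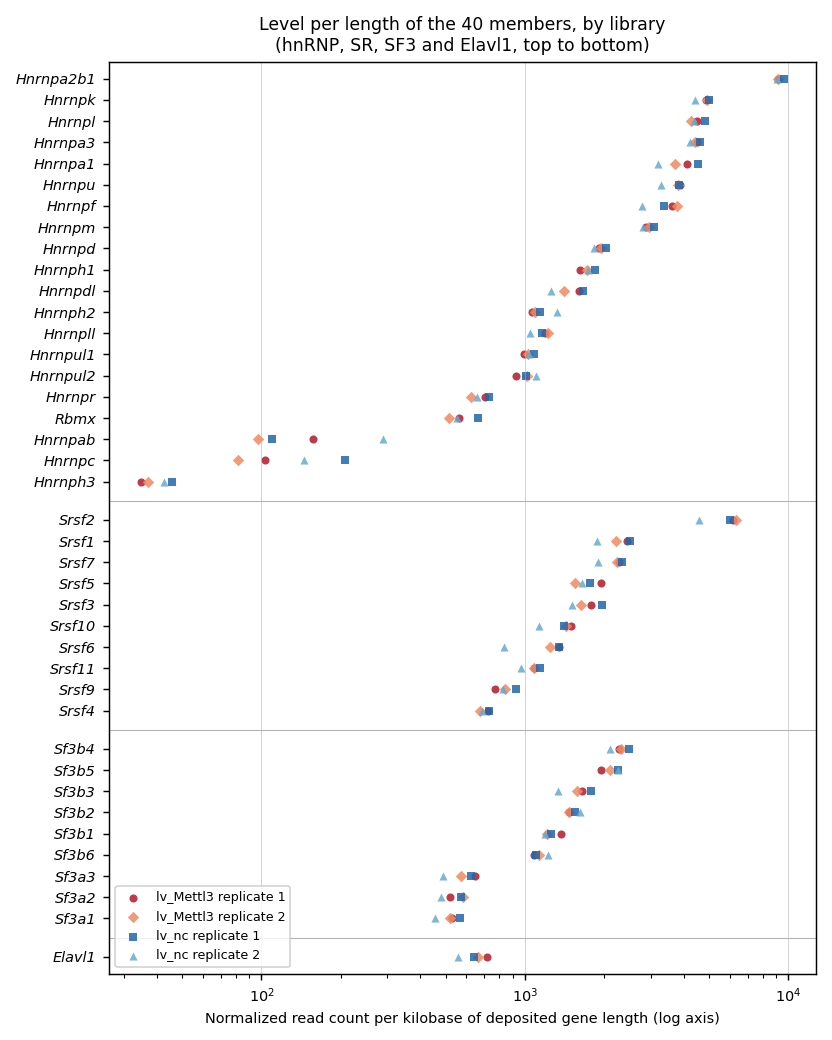
Normalized reads per kilobase of deposited gene length (log axis) for the 40 members in each of the 4 libraries; red and orange symbols are the libraries labelled lv_Mettl3, blue symbols those labelled lv_nc. Libraries of a gene lie close together except for Hnrnpab and Hnrnpc, and the lv_nc replicate 2 triangle is often the leftmost, as for Srsf6 and Srsf2.

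The hnRNP genes highest per length, Hnrnpa2b1 and Hnrnpk, had log2 fold changes near 0. Hnrnpa2b1 had 9745 and 9750.3 normalized reads in the libraries labelled lv_Mettl3, against 10267 and 9630.4 in those labelled lv_nc, and the groups overlap. Its log2 fold change was -0.03 (SE 0.09, 95% interval -0.25 to 0.19, limma adjusted p = 0.918). Hnrnpk had 13157 and 13247 reads in the libraries labelled lv_Mettl3, against 13585 and 12011 in those labelled lv_nc, which lie on either side (log2 fold change 0.05, SE 0.10). Hnrnpf, which binds runs of G and can favour or oppose an exon, had the largest positive value of the family, with 8474 and 8826 in the libraries labelled lv_Mettl3, against 7886 and 6512 in those labelled lv_nc. The groups do not overlap, and the lowest library is lv_nc replicate 2. Over all 4 libraries the log2 fold change was 0.27 (SE 0.12, limma adjusted p = 0.502), and without lv_nc replicate 2 it was 0.13. Hnrnpll, a regulator of exon choice in lymphocytes, had 2115 and 2170.2 in the libraries labelled lv_Mettl3, against 2064 and 1849 in those labelled lv_nc (log2 fold change 0.13, SE 0.10). Hnrnph3 was the lowest of the family at 91.2 and 97.1 in the libraries labelled lv_Mettl3, against 119 and 112 in those labelled lv_nc; its log2 fold change of -0.29 had an SE of 0.21. Rbmx, an X-linked hnRNP linked to m6A on nuclear RNA, had 1113 and 1018 in the libraries labelled lv_Mettl3, against 1313 and 1096 in those labelled lv_nc, which overlap (log2 fold change -0.17, SE 0.13).

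Hnrnpab, a single-stranded nucleic acid binder, varied most between replicates. It had 272 and 168 reads in the libraries labelled lv_Mettl3, against 191 and 499 in those labelled lv_nc. The highest and second lowest libraries are both lv_nc, so the groups overlap, and the log2 fold change of -0.52 (SE 0.51) is 0.17 without lv_nc replicate 2. Phykpl, a metabolic enzyme gene on the opposite strand that shares 5125 bases with Hnrnpab in the deposited coordinates, had 2.12 and 1.03 reads in the libraries labelled lv_Mettl3, against 5.86 and 29.5 in those labelled lv_nc. It was likewise highest in lv_nc replicate 2. The strand setting of the counting is not given, so whether reads of these genes were kept apart where they overlap is not known.

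The row named Hnrnpc differed most. The hnRNP C proteins bind U-rich RNA and, in human cells, gain access to sites that m6A opens. The row had 179 and 142 reads in the libraries labelled lv_Mettl3, against 361 and 253 in those labelled lv_nc. Both libraries labelled lv_Mettl3 lie below both labelled lv_nc, with a mean of 160.4 ± 26.6 in the libraries labelled lv_Mettl3 and 307 ± 76.7 in those labelled lv_nc (SD, n = 2 each). The log2 fold change was -0.92 (SE 0.25, 95% interval -1.55 to -0.29), with a limma adjusted p of 0.419 and a DESeq2 adjusted p of 0.0668; the authors' deposited table gives -0.94 and an adjusted p of 0.0668 for it. Leaving out each library in turn, the log2 fold change stayed between -1.18 and -0.66.

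A second row described as hnRNP C1/C2-like, LOC100911576, bears on which gene this is. The build of the deposited coordinates is not given. In them the Hnrnpc row lies on chromosome 14 from 88543630 to 88574203 on the plus strand, and LOC100911576 lies on chromosome 15 from 28486617 to 28517353 on the minus strand. In RefSeq's GRCr8 annotation, 0 of the 20 protein-coding genes nearest to Hnrnpc were among the neighbours of the deposited Hnrnpc row. Of the same 20 genes, 14 were among the neighbours of LOC100911576, including Mettl3 itself, Chd8, Supt16h and Tox4. Each of the other 39 members shared at least 4 flanking genes with its RefSeq namesake and lay on the same chromosome. By these neighbours the RefSeq gene corresponds to the row called C1/C2-like; the other row is reported under the name it was deposited with.

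The rows of the pair differed in direction. LOC100911576 had 266 and 219 reads in the libraries labelled lv_Mettl3, against 211 and 169 in those labelled lv_nc. Both libraries labelled lv_Mettl3 lie above both labelled lv_nc, and the difference of 0.35 on the log2 scale (SE 0.20) did not pass the test (limma adjusted p = 0.553). Added together, the rows gave 445 and 361 reads in the libraries labelled lv_Mettl3, against 573 and 422 in those labelled lv_nc, which overlap. The row named Hnrnpc made up 40.2% and 39.3% of the sum in the libraries labelled lv_Mettl3, against 63.1% and 60.0% in those labelled lv_nc. Its mean share was 39.7 ± 0.695% in the libraries labelled lv_Mettl3 and 61.5 ± 2.25% in those labelled lv_nc (SD, n = 2 each). Because the rows separate the groups in opposite directions, the share had to separate them as well. An exact two-sided permutation test could therefore only give p = 0.333, the smallest with 2 against 2, and adds nothing to these values. LOC100911576 is described as hnRNP C1/C2-like, and how reads that match both rows were assigned is not known, so each value is uncertain.

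**Figure D3:**
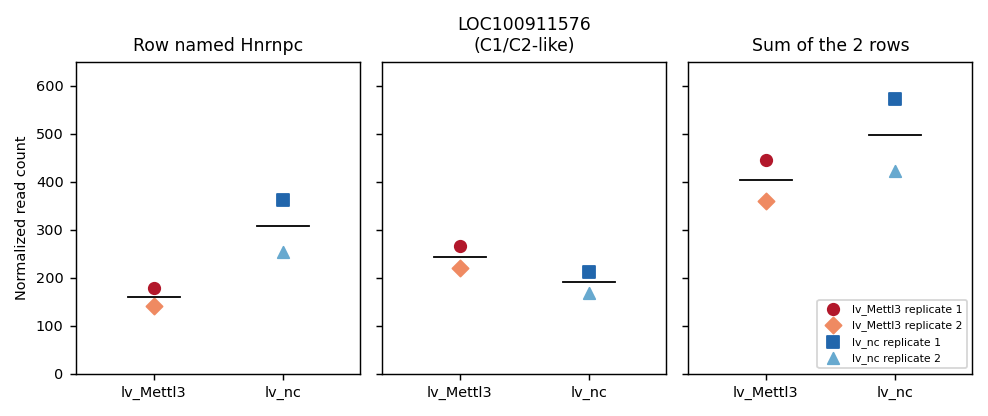
Normalized reads in each library for the row named Hnrnpc, for LOC100911576 (C1/C2-like) and for their sum, with libraries labelled lv_Mettl3 on the left, libraries labelled lv_nc on the right and group means as bars. The first row is lower and the second higher in the libraries labelled lv_Mettl3, and the sums overlap, at 445 and 361 in the libraries labelled lv_Mettl3 against 573 and 422 in those labelled lv_nc.

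Other members have copies that could share reads. RefSeq lists 107 entries that carry the symbol of a member with a -ps ending, the usual mark of a pseudogene, for 18 of the 40 members. Of these entries 51 are for Hnrnpa1, 1 of which RefSeq does not type as a pseudogene, 10 for Srsf3, 7 for Hnrnpk and 7 for Srsf7. In the deposited table a K-like row, LOC100359916, averaged 466 ± 29.2 reads in the libraries labelled lv_Mettl3 and 447 ± 21.9 in those labelled lv_nc (SD, n = 2 each), low beside Hnrnpk. An R-like pseudogene row, LOC102551606, averaged 579 ± 122 reads in the libraries labelled lv_Mettl3 and 426 ± 62.0 in those labelled lv_nc, where Hnrnpr averaged 1751 ± 147 in the libraries labelled lv_Mettl3 and 1833 ± 138 in those labelled lv_nc. Rbmxl1, a relative of Rbmx, had 1808 and 1835 reads in the libraries labelled lv_Mettl3, against 1915 and 1742 in those labelled lv_nc. It stood above Rbmx in every library. Rbmxl1b, an A3-like row (LOC100911361) and an unnamed transcript described as hnRNP F were also in the table, each well below the member it resembles. Where reads match both copies, the values of these members are uncertain.

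Among SR genes the level per length was highest for Srsf2 (5766 ± 815 per kilobase, SD over 4 libraries), which acts at exonic enhancers, and for Srsf1 (2261 ± 287), the founding member that helps U1 find the 5′ splice site. Srsf7, Srsf5 and Srsf3 lay between 1720.5 and 2184, Srsf10 at 1363, Srsf6 at 1195, Srsf11 at 1066, Srsf9 at 842 and Srsf4 lowest at 704 ± 26.3. None of the 10 passed the test; 7 log2 fold changes were above 0 and 3 below.

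Srsf2 had 11743 and 12018 reads in the libraries labelled lv_Mettl3, against 11418 and 8668 in those labelled lv_nc. The libraries labelled lv_Mettl3 were both higher, yet close to lv_nc replicate 1; the log2 fold change was 0.26 (SE 0.15, limma adjusted p = 0.558) and 0.06 without lv_nc replicate 2. Srsf1 had 12386 and 11285 in the libraries labelled lv_Mettl3, against 12789.7 and 9531 in those labelled lv_nc, which bracket them. Srsf6, which regulates exon choice in tau, had 4731 and 4389 in the libraries labelled lv_Mettl3, against 4736 and 2932 in those labelled lv_nc. It had the largest positive log2 fold change of the 40, 0.29 (SE 0.23), which is -0.06 without lv_nc replicate 2.

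Srsf3, the smallest SR protein and a partner of the nuclear m6A reader Ythdc1 in human cells, had 9445 and 8624 reads in the libraries labelled lv_Mettl3, against 10348 and 7988 in those labelled lv_nc. The groups overlap and the log2 fold change was -0.01 (SE 0.15). Srsf10, a splicing factor that turns repressor on dephosphorylation, had 1777 and 1701 in the libraries labelled lv_Mettl3, against 1674 and 1347 in those labelled lv_nc, with 0.21 as log2 fold change (SE 0.13, limma adjusted p = 0.581). Without lv_nc replicate 2 it was 0.055, and without lv_nc replicate 1 it was 0.37. The largest negative value was that of Srsf9, with 844 and 924 in the libraries labelled lv_Mettl3, against 1015 and 907 in those labelled lv_nc, which overlap (-0.12, SE 0.12). Srsf4 was the steadiest of the family, with 1591 and 1491 in the libraries labelled lv_Mettl3, against 1611 and 1515 in those labelled lv_nc.

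The SF3b subunits stood above the SF3a subunits in level per length, though not all of them in reads. Sf3b6, with a deposited length of 372 bases, had 404 and 420 reads in the libraries labelled lv_Mettl3, against 411 and 454 in those labelled lv_nc. In reads it was below every SF3a subunit. The SF3b subunits ran from 1135 (Sf3b6, which contacts the branch point adenosine) through 1260.3 (Sf3b1, the large scaffold mutated in myelodysplasia), 1528 (Sf3b2) and 1583 (Sf3b3) to 2139 (Sf3b5) and 2293 ± 154 per kilobase (Sf3b4). The 3 SF3a subunits, which join SF3b to the U2 particle, lay close to each other. They stood at 584 ± 69.0 (Sf3a3), 538 ± 47.3 (Sf3a2) and 518 ± 45.4 (Sf3a1), SD over 4 libraries. Within each library Sf3a3 was above Sf3a1, while the place of Sf3a2 varied. In log2 fold change the 9 genes ran from -0.16 to 0.13 and none passed the test.

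Sf3b5, a small subunit, had 1389 and 1491 reads in the libraries labelled lv_Mettl3, against 1608 and 1604 in those labelled lv_nc. Sf3b2 had 4745 and 4749.6 in the libraries labelled lv_Mettl3, against 4991 and 5222 in those labelled lv_nc. Both genes were lower in both libraries labelled lv_Mettl3, by log2 values of -0.16 (SE 0.09, limma adjusted p = 0.557) and -0.11 (SE 0.08, limma adjusted p = 0.648). Sf3b4 had 3485 and 3559 in the libraries labelled lv_Mettl3, against 3795 and 3222 in those labelled lv_nc. Sf3b1 had 6783 and 6033 in the libraries labelled lv_Mettl3, against 6247 and 5910.1 in those labelled lv_nc. Neither separates the groups, with log2 fold changes of 0.01 and 0.07. Sf3a3 had 1755 and 1564 in the libraries labelled lv_Mettl3, against 1706 and 1336 in those labelled lv_nc (log2 fold change 0.13, SE 0.15). Sf3a1 had 2664 and 2617 in the libraries labelled lv_Mettl3, against 2836 and 2291 in those labelled lv_nc (0.05, SE 0.13).

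Elavl1 (HuR), which binds AU-rich elements and stabilises mRNA, had 1752 and 1618 reads in the libraries labelled lv_Mettl3, against 1558 and 1362 in those labelled lv_nc. Both libraries labelled lv_Mettl3 were above both labelled lv_nc. The log2 fold change was 0.21 (SE 0.11, 95% interval -0.08 to 0.50, limma adjusted p = 0.54), and it was 0.11 without lv_nc replicate 2 and 0.31 without lv_nc replicate 1. Its level per length was 645 ± 66.5 (SD over 4 libraries).

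The pattern that the members share lies between the lv_nc replicates. The lv_nc replicate 2 library was below lv_nc replicate 1 in 35 of the 40 genes, against 51.1% of the 10051 genes at that level: in 17 of 20 hnRNP, 10 of 10 SR and 7 of 9 SF3 genes, and in Elavl1. The median log2 difference, replicate 1 minus replicate 2, was 0.170 for the members, 0.304 for SR, 0.236 for SF3 and 0.148 for hnRNP genes, and 0.007 for the genes at that level. Between the libraries labelled lv_Mettl3 it was 0.017 for the members. Lowest of the 4 libraries was lv_nc replicate 2 in 24 of the 40 members, against 37.8% of the genes at that level, and lv_nc replicate 1 in 0, against 18.8%. Highest was lv_nc replicate 1 in 25 of the 40, against 20.2% of the genes at that level.

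Summed over the 10 SR genes, reads were 50039 and 47452 in the libraries labelled lv_Mettl3, against 51131 and 39360 in those labelled lv_nc, so lv_nc replicate 2 held 77.0% of lv_nc replicate 1. The hnRNP sum was 99676 and 98743 in the libraries labelled lv_Mettl3, against 104042 and 92189 in those labelled lv_nc. The SF3 sum was 29457 and 28455 in the libraries labelled lv_Mettl3, against 30528 and 26835 in those labelled lv_nc. In all 3 families the lv_nc libraries lie on either side of those labelled lv_Mettl3. All 40 together made up 1.13% and 1.10% of reads in the libraries labelled lv_Mettl3, against 1.19% and 1.04% in those labelled lv_nc.

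**Figure D4:**
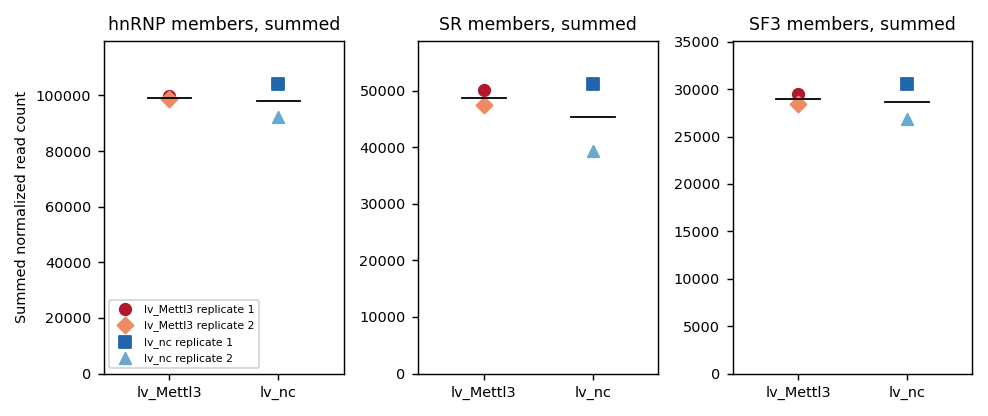
Summed normalized reads of the hnRNP, SR and SF3 genes in each library, libraries labelled lv_Mettl3 on the left and lv_nc on the right, group means as bars, each axis from 0. In each family lv_nc replicate 1 is highest and lv_nc replicate 2 lowest, with the libraries labelled lv_Mettl3 between them; the SR sums are 50039 and 47452 in the libraries labelled lv_Mettl3 and 51131 and 39360 in those labelled lv_nc.

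The direction of the families depended on these libraries. The median log2 fold change of the SR genes was 0.21 without lv_nc replicate 1 and -0.06 without lv_nc replicate 2, and that of the SF3 genes 0.13 and -0.07. Without lv_nc replicate 1, DESeq2 called 5 members: Srsf6, Srsf2, Hnrnpf and Srsf1 as higher in the libraries labelled lv_Mettl3 and Hnrnpab as lower, with adjusted p of 3.99e-06, 4.92e-05, 0.000838, 0.0221 and 0.00846. In that setting it called 12.7% of the 12145 genes it adjusted, and the single lv_nc library left is assumed to vary like the other group. Among the members the share called was no higher. The share of all genes called with another library left out is not available here, so no count of members is given for it. The collagen markers Col1a1 and Col3a1 were highest in lv_nc replicate 2, as given above. The smooth muscle markers were not: Tagln was lowest there, and Acta2 had 542 and 488 reads in the libraries labelled lv_Mettl3, against 1531 and 748 in those labelled lv_nc. Their part in this was not tested.

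**Figure D5:**
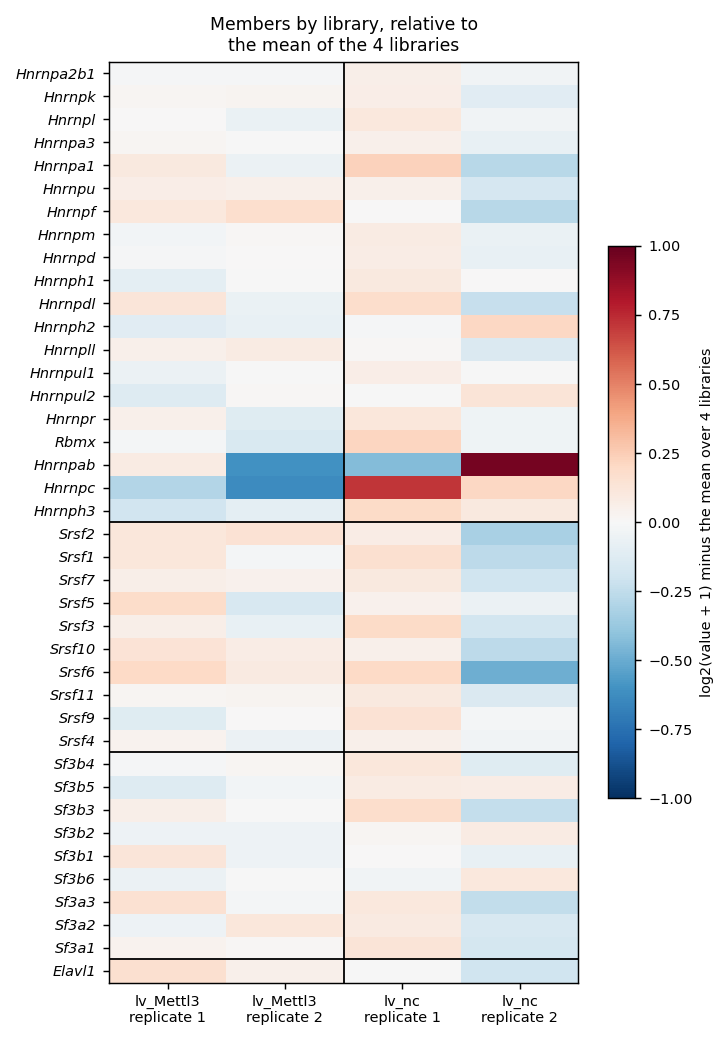
For each member, log2(value + 1) in each library minus the mean over the 4 libraries, libraries labelled lv_Mettl3 left and lv_nc right; red is above and blue below the mean. The lv_nc replicate 2 column is blue for most hnRNP, SR and SF3 genes (below lv_nc replicate 1 in 35 of 40), and Hnrnpab and Hnrnpc show the widest spread.

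Other genes of the splicing machinery were rarely called, as were genes at large. Of 141 other splicing genes, 134 were in the table and 131 could be tested. Limma and edgeR called 0 of them, against 0.0183% and 0.0305% of all genes. DESeq2 called 0 higher and 1 lower, against 2.52% of the genes it adjusted, in either direction. At an unadjusted limma p under 0.05 there were 6 higher and 4 lower, against 10.5% of all genes in either direction. The median log2 fold change of these other splicing genes was 0.045. The gene called by DESeq2 was Nova2, a neuronal splicing factor, which had 20.1 and 24.8 reads in the libraries labelled lv_Mettl3, against 57.6 and 107 in those labelled lv_nc. It fell by DESeq2 (adjusted p = 0.0419) and did not pass limma (log2 fold change -1.77, SE 0.41, adjusted p = 0.399).

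By list, 0 of 15 U1, U2 and U2AF proteins were called by any of these tests, and the smallest unadjusted limma p was that of Dnajc8, a spliceosome-associated chaperone, at 1651 and 1711 in the libraries labelled lv_Mettl3, against 2045 and 2156 in those labelled lv_nc. Of the 14 Sm and LSm core proteins 0 were called, with Snrpg, an Sm ring protein, at 50.9 and 89.9 in the libraries labelled lv_Mettl3, against 24.4 and 28.6 in those labelled lv_nc. Both genes were picked for the smallest p in their lists. They separate the groups, as do 21.5% of all genes lower and 23.5% higher in the libraries labelled lv_Mettl3. The log2 fold changes of Dnajc8 and Snrpg were -0.32 (SE 0.09) and 1.32 (SE 0.39), and neither passed the test. Likewise 0 of 28 tri-snRNP and catalytic step proteins (Cdc40, -0.36), 0 of 17 SR-related and exon junction proteins (Thrap3, -0.23), 0 of 23 hnRNP-type proteins with other names (Ewsr1, 0.98), 0 of 9 U2 and SF3 associated proteins (Cherp, 0.29) and 0 of 1 Elavl1 relatives (Elavl2, -0.11) were called; the gene in brackets is that with the smallest p in its list, with its log2 fold change. Of the 18 tissue-regulated factors tested, Nova2 was the one called.

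The kinases that phosphorylate SR proteins and their partners, 9 genes, also had 0 calls. Srpk1, the cytoplasmic kinase that readies SR proteins for import, had 2203 and 2372 reads in the libraries labelled lv_Mettl3, against 2132 and 1475 in those labelled lv_nc. It was picked for the smallest p in its list. Its lowest library was lv_nc replicate 2, as for 7 of the 10 SR genes and 37.8% of genes that average 100 or more. Without lv_nc replicate 2 the log2 fold change of Srpk1 is 0.10, and with it 0.37 (SE 0.19, limma adjusted p = 0.534).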

How the data were processed

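Reads were processed with CASAVA 1.4 and HISAT2, per the submitters' processing notes; the sources used here do not name the counter, strand setting, build or annotation. In the deposited table each library column holds a signal: read counts that the authors divided by 1 size factor per library (0.943 and 0.968 for lv_Mettl3, 1.02 and 1.08 for lv_nc). Within 0.001 reads, 100% of values gave whole reads when divided by the step of the library. The table's log2 fold changes and p-values were computed by the authors, per the file headers, and gene lengths are deposited in bases.

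Groups came from the sample titles. Because values are normalized, the test was limma 3.58.1 (trend) on log2(value + 1), for the 16391 genes that reach 1 in 2 or more libraries. P-values were Benjamini-Hochberg adjusted, with a threshold of 0.05; this scale understates the fold changes of low genes. On recovered reads, edgeR 4.0.16 called 5 genes and DESeq2 1.42.0 called 318, as in the authors' table. R 4.3.3 was used, with Python 3.11.15 for tables and matplotlib 3.10.9 for figures. Scripts were tested on simulated data. The members and lists were chosen with earlier results of these data known. Values in every library are given for members linked to m6A and, in each family, the 2 highest and 1 lowest per length and the 2 largest fold changes each way, where the higher group averages 50 or more; of other lists, genes called or with the smallest p. RefSeq (GRCr8) was used for names, copies and neighbours, not for coordinates. Alternatives changed test, scaling, pseudocount, filter, empirical Bayes, replicate block and the libraries used. The 945 unnamed transcripts stayed in the tests. No paired design is stated.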

Additional observations from a re-analysis of the deposited data

How the results depend on the processing

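The count of members called was 0 under all 15 alternatives, by limma-voom, edgeR and DESeq2 included, at a p adjusted over all genes. Over all genes the count was 3, and 5 with limma-voom, 5 with edgeR, 318 with DESeq2, 5 with at least 1 CPM in all 4 libraries, 24 with robust empirical Bayes, 0 with a pseudocount of 0.1 and 0 whichever library was left out; the cause was not tested, beyond the fewer samples of the last. The median log2 fold change of the members was 0.015 and ran from -0.077 to 0.098 when 1 library was left out. Other splicing genes called were 0, and 1 with DESeq2.

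With a replicate block the count over all genes was 3 and that of members 0. The labels do not say that numbers pair libraries; deviations of same-numbered libraries correlated at 0.33 over genes that average 100 or more, and 2 pairs do not settle it. The block changed no other call.

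For 22 named members, 315 of 330 values kept their sign. The filters, robust empirical Bayes and the replicate block leave a limma log2 fold change as it is, so they could not change a sign. Sign changes numbered 1 with library size scaling, 1 without lv_Mettl3 replicate 1 and 3 without lv_Mettl3 replicate 2. They numbered 3 without lv_nc replicate 1 and 7 of 22 without lv_nc replicate 2. With library size scaling, which moves the median of all genes by -0.04, Sf3b4 was -0.030. Leaving out 1 library gave log2 fold changes of -0.075 to 0.017 for Hnrnpa2b1, -1.22 to 0.17 for Hnrnpab, -0.041 to 0.14 for Hnrnpk, -0.10 to 0.20 for Sf3a1, -0.042 to 0.31 for Sf3a3, -0.010 to 0.16 for Sf3b1, -0.11 to 0.13 for Sf3b4, -0.11 to 0.31 for Srsf1, -0.20 to 0.18 for Srsf3, -0.067 to 0.027 for Srsf4 and -0.056 to 0.64 for Srsf6. Without a change of sign, the range was 0.11 to 0.31 for Elavl1, 0.13 to 0.41 for Hnrnpf, 0.054 to 0.21 for Hnrnpll, -0.30 to -0.042 for Rbmx, 0.057 to 0.45 for Srsf2, 0.055 to 0.37 for Srsf10 and -0.20 to -0.038 for Srsf9. Family medians ranged from -0.06 to 0.21 (SR), -0.07 to 0.13 (SF3) and -0.08 to 0.01 (hnRNP) when 1 library was left out. These medians and the DESeq2 calls without lv_nc replicate 1 were chosen after seeing the data. With 2 libraries a group, limma's interval for Hnrnpab reaches from -1.82 to 0.77, so a change of that size would not be detectable there.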
